A study of Rattus norvegicus with 6 samples.

Results

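Mitochondrial ribosomal protein genes were examined in kidneys of Han:SPRD rats with and without the Cy mutation. A gene was a member when a probe set had a single symbol made of Mrpl or Mrps and a number, as the proteins of the large and the small mitochondrial ribosomal subunit are named. This gave 73 of the 14217 genes with a symbol of their own, 46 named for the large and 27 for the small subunit, with 97 probe sets of which 92 were bright enough to test. Where a gene had several, the brightest over the 6 arrays stood for it, and all 73 genes could be tested. Kidney RNA samples of heterozygous Cy/+ and wild-type +/+ male rats, 3 samples per genotype, were hybridized to rat oligonucleotide arrays, 1 array per sample. Cy/+ rats carry a missense mutation in Anks6 on 1 allele in every cell and develop a slowly progressing cystic kidney disease, +/+ rats are of the same Han:SPRD background, and the labels name no agent for either group. Anks6 was not analysed here. The labels give the age as 10 weeks, whereas the methods of the study give a younger age. No source states that each sample is a separate rat, so the p-values rest on a spread between samples that may be technical.

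Mitochondria have a ribosome of their own, which descends from that of bacteria and makes only a handful of proteins, all of them membrane subunits of the respiratory chain and ATP synthase encoded by mitochondrial DNA. Its RNA is transcribed inside the organelle, but every one of its proteins is encoded in the nucleus, made in the cytosol and imported. Many of them have a bacterial homolog, and others were added during mitochondrial evolution. In the kidney the proximal tubule is especially rich in mitochondria.

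The promoter sequences of 4 genes are printed as examples. They are RefSeq sequences of the rat assembly GRCr8, read 5′ to 3′ along the gene, with matches to 3 short motifs in capitals. Each holds the 250 bases before the annotated first base of the gene and the 50 bases that begin with it. The motifs, searched on both strands, are AAGATGGC for the factor YY1, CCGGAAG for the ETS factor GABPA (NRF2), and GCATGCGC for nuclear respiratory factor NRF1, all of them known regulators of mitochondrial genes. The YY1 and GABPA motifs cannot be read on both strands at once, but the NRF1 motif overlaps its own reverse complement in the longer run GCGCATGCGC. Mrpl50 had the largest decrease of all members by the brightest probe sets, Mrps6 the largest increase, Mrps18b was the member with all 3 motifs, and Mrpl46 shares its start region with Mrps11 on the opposite strand. The windows are chr5:68668038-68668337 (minus strand) for Mrpl50, chr11:44778417-44778716 (plus strand) for Mrps6, chr20:2842756-2843055 (plus strand) for Mrps18b and chr1:142116981-142117280 (minus strand) for Mrpl46.
Mrpl50: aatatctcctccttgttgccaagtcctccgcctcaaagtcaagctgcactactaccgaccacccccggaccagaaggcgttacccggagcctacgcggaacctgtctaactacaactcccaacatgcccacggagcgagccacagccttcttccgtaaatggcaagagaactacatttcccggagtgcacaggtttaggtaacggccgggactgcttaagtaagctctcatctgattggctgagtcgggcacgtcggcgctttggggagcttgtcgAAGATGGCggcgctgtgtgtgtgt
Mrps6: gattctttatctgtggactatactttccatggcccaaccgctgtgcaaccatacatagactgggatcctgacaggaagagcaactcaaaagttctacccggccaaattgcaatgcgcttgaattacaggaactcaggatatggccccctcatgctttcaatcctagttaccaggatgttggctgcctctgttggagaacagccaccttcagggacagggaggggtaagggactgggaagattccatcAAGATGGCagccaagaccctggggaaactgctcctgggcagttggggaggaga
Mrps18b: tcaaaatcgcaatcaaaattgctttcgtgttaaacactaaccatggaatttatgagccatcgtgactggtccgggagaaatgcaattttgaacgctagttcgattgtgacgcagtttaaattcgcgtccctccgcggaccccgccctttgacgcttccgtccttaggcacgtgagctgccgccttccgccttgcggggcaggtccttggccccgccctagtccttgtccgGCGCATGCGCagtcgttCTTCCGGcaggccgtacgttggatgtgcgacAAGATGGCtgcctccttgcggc
Mrpl46: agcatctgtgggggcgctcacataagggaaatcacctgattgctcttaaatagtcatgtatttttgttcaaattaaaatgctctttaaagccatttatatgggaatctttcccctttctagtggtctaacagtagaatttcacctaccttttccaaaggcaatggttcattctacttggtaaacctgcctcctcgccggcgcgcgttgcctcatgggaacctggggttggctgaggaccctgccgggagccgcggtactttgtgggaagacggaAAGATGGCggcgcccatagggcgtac
All 4 printed sequences hold the YY1 motif, which was present in only 14 of the 59 members with a promoter sequence. The YY1 motif starts 26 bases after the first base of the gene in Mrpl50, 28 bases after it in Mrps18b and 24 bases after it in Mrpl46. In Mrps6, whose annotated start falls on the letters ATG, it starts 3 bases before the first base. The promoter window of Mrps11, chr1:142117014-142117313 on the plus strand, overlaps that of Mrpl46 by 267 bases, and the starts of these genes lie 234 bases apart and point away from each other. A large and a small subunit gene are thus read outward from the same stretch of chromosome 1.

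Mitochondrial ribosomal protein genes were predominantly downregulated in Cy/+ kidneys. Of the 73 genes, 51 (69.9%) were lower in Cy/+ than in +/+ kidneys, 4 (5.48%) were higher and 18 did not pass the test (limma, Benjamini-Hochberg adjusted over all tested probe sets, threshold 0.05). Over all 10645 genes tested on these arrays, 29.3% were lower and 37.4% higher. The median log2 fold change of the members, Cy/+ over +/+, was -0.39, with quartiles of -0.63 and -0.20, against a median of 0.09 over all genes. The decreases were mostly modest, since the called genes had 0.346 to 0.841 of their +/+ level with a median of 0.673, and only 4 members were lowered by 2-fold or more, whereas none was raised by as much. All 3 Cy/+ arrays lay below all 3 +/+ arrays for 56 members and above them for 4, compared with 33.1% and 41.5% of all genes. In whole kidney RNA, fewer cells of a type and less RNA per cell cannot be told apart. Of the proximal tubule markers all 12 of 12 were lower in Cy/+ kidneys (median log2 fold change -2.94), and their summed signal was 9480 to 22583 on the Cy/+ arrays and 87642 to 92679 on the +/+ arrays. No marker was listed at 0, and the part of this shift in the members' decrease was not tested. The 3′ to 5′ signal ratio of the beta-actin control probe sets, which reports on intact RNA and complete labeling, also differed between the genotypes, at 3.22 ± 0.26 in Cy/+ and 1.51 ± 0.0057 in +/+ samples (SD, n = 3 each), and that of Gapdh was 1.85 ± 0.10 in Cy/+ and 1.18 ± 0.036 in +/+ samples. The part of RNA quality in the members' decrease was not tested. Without Cy/+ array 1 the number of members called higher was 8 in place of 4.

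**Figure D1:**
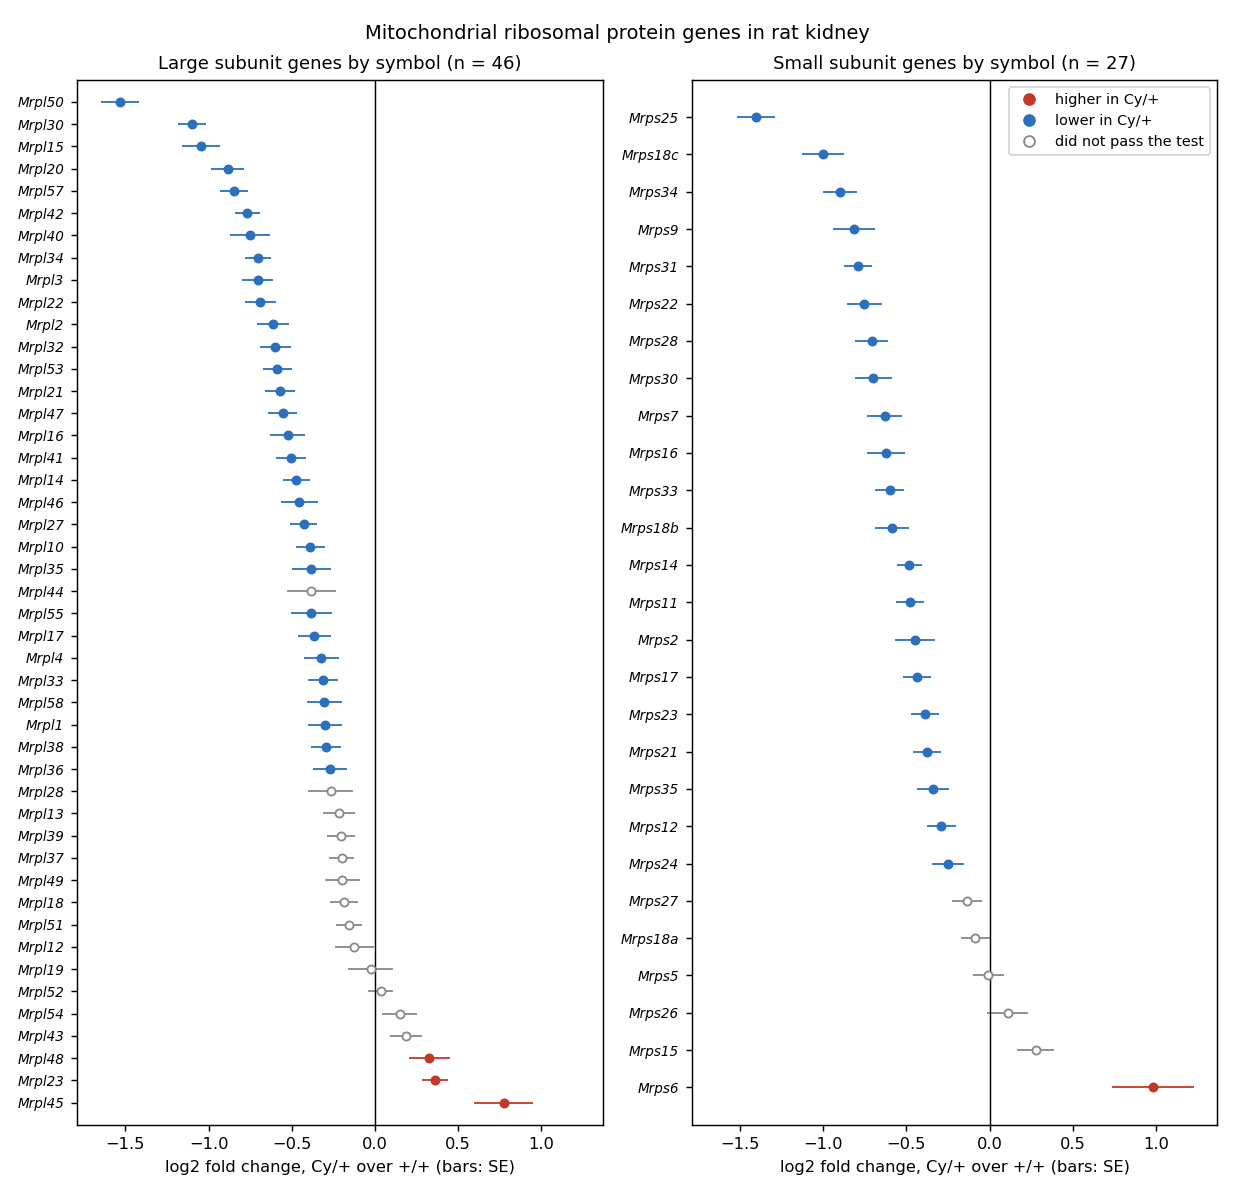
Log2 fold change of each of the 73 members, Cy/+ over +/+ kidneys, with its standard error, for the 46 large (left) and 27 small subunit genes (right), ordered by size. Filled points passed the test, 51 of them lower and 4 higher in Cy/+ kidneys, and open points did not.

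Both subunits took part. Of the large subunit genes, 30 of 46 (65.2%) were lower and 3 higher (median log2 fold change -0.38), and of the small subunit genes 21 of 27 (77.8%) were lower and 1 higher, with a median of -0.48. The difference between the subunits was not tested. Sorted by ancestry, 21 of 27 large subunit genes with a bacterial homolog were lower and 1 higher (median -0.39), as were 9 of 19 mitochondria-specific ones, with 2 higher (median -0.29). In the small subunit 13 of 17 genes with a bacterial homolog were lower and 1 higher (median -0.45), whereas 8 of the 10 mitochondria-specific genes were lower and none was higher (median -0.65). Mrps18a and Mrps30 carry a small subunit name although structures of the mammalian ribosome place their proteins in the large subunit. Mrps30 was lower by a log2 fold change of -0.70 and Mrps18a was at -0.09 and did not pass, and moving both to the large subunit gave 31 large and 20 small subunit genes lower. Mrpl9, Mrpl11, Mrpl24, Mrps10 and Mrps36 had no probe set with a single symbol of this name and were not analysed here.

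Among the large subunit genes, by their brightest probe sets, the decrease was deepest for Mrpl50, a mitochondria-specific protein. With the mean of each gene's probe sets Mrpl50 was at -0.78 and Mrpl30, which has 1 tested probe set, was lower still at -1.10. The signals of Mrpl50, in the arbitrary units of the scanner software, were 424.2, 436.6 and 537.6 on the Cy/+ arrays against 1402, 1386 and 1238 on the +/+ arrays. The Cy/+ arrays were all far below the +/+ arrays, at 0.346 of their level (log2 fold change -1.53 ± 0.12, SE, limma adjusted p = 5.6e-05). Mrpl30, the homolog of bacterial L30, had signals of 397.0, 434.0 and 397.9 on the Cy/+ arrays and 892.7, 903.3 and 836.7 on the +/+ arrays. These values were tight within each genotype and well apart between them (log2 fold change -1.10 ± 0.08, SE, limma adjusted p = 5.6e-05). Mrpl15, the homolog of bacterial L15, had signals of 1684, 1703 and 2185 on the Cy/+ arrays and 3897, 3815 and 3694 on the +/+ arrays. Cy/+ array 3 was the highest of its genotype and still far below every +/+ array (log2 fold change -1.04 ± 0.11, SE, limma adjusted p = 0.000218).

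Most other large subunit genes with a bacterial homolog were lower by smaller steps, whereas Mrpl23 was higher (0.36) and 5 did not pass. Mrpl20 (log2 fold change -0.89), Mrpl34 (-0.70), Mrpl3 (-0.70), Mrpl22 (-0.69), Mrpl2 (-0.62), Mrpl32 (-0.60), Mrpl21 (-0.57), Mrpl47 (-0.55) and Mrpl16 (-0.52) were all lower. Mrpl2 and Mrpl3 are homologs of proteins that brace the peptidyl transferase center, and Mrpl22 and Mrpl47 of proteins at the tunnel through which the new chain leaves. Smaller decreases were seen for Mrpl14 (-0.47), Mrpl27 (-0.43), Mrpl10 (-0.39), Mrpl35 (-0.38), Mrpl55 (-0.38), Mrpl17 (-0.36), Mrpl4 (-0.32), Mrpl33 (-0.31), Mrpl1 (-0.30) and Mrpl36 (-0.27). Mrpl36 kept its call in only 5 of 17 alternatives, and without a single array only when Cy/+ array 3 was left out. Mrpl12, which forms the flexible stalk that recruits the translation factors, was at -0.12 and did not pass, and neither did Mrpl28 (-0.27), Mrpl13 (-0.21), Mrpl18 (-0.19) or Mrpl19 (-0.03). Mrpl10, which anchors that stalk, was lower, as was the other tested probe set of Mrpl12 (-0.55, limma adjusted p = 0.00648).

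The mitochondria-specific genes of the large subunit were the most divided group. Besides Mrpl50, Mrpl57 (-0.85), Mrpl42 (-0.77), Mrpl40 (-0.75), Mrpl53 (-0.59), Mrpl41 (-0.50) and Mrpl46 (-0.46) were lower, as were Mrpl58 (-0.30), a peptidyl-tRNA hydrolase built into the ribosome, and Mrpl38 (-0.29). Mrpl44, a relative of RNase III enzymes, was at -0.38 with a wide spread between the Cy/+ arrays and did not pass. Mrpl39 (-0.20), Mrpl37 (-0.20), Mrpl49 (-0.20), Mrpl51 (-0.16), Mrpl52 (0.03), Mrpl54 (0.15) and Mrpl43 (0.19) did not pass either. Grouped by place, in sets chosen after their values were seen, 5 of 8 genes for the central protuberance (Mrpl18, Mrpl38, Mrpl40, Mrpl46, Mrpl48, Mrpl52, Mrpl55 and Mrpl58) were lower and 1 was higher. Of 5 genes for proteins around the tunnel exit, Mrpl17, Mrpl22 and Mrpl47 were lower whereas Mrpl23 and Mrpl45 were higher.

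In the small subunit the largest decrease was that of Mrps25, a mitochondria-specific protein whose loss of function causes a mitochondrial encephalomyopathy in humans. Its signals were 996.4, 790.6 and 997.8 on the Cy/+ arrays and 2594, 2490 and 2254 on the +/+ arrays. No array of either genotype came near the other (log2 fold change -1.40 ± 0.12, SE, limma adjusted p = 7.64e-05). Mrps18c, one of the mammalian relatives of bacterial S18, had signals of 226.2, 182.1 and 207.2 on the Cy/+ arrays and 411.3, 457.6 and 362.2 on the +/+ arrays. All Cy/+ arrays were below all +/+ arrays (log2 fold change -0.999 ± 0.13, SE, limma adjusted p = 0.000422), and its probe set can bind more than 1 transcript of the gene. Mrps34, which keeps the small subunit stable in mouse and human cells, had signals of 782.7, 955.4 and 951.4 on the Cy/+ arrays and 1716, 1699 and 1582 on the +/+ arrays. Cy/+ array 1 was the lowest here (log2 fold change -0.90 ± 0.10, SE, limma adjusted p = 0.000259).

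The other mitochondria-specific genes of the small subunit that were lower were Mrps31 (-0.79), Mrps22 (-0.75), Mrps30 (-0.70), Mrps33 (-0.60), Mrps23 (-0.39) and Mrps35 (-0.34), and Mrps27 (-0.14) and Mrps26 (0.11) did not pass. Of the genes with a bacterial homolog, Mrps9 (-0.81), Mrps28 (-0.71), Mrps7 (-0.63), Mrps16 (-0.62), Mrps18b (-0.59), Mrps14 (-0.48), Mrps11 (-0.48), Mrps2 (-0.45), Mrps17 (-0.44), Mrps21 (-0.38), Mrps12 (-0.29) and Mrps24 (-0.25) were lower, Mrps24 in only 6 of 17 alternatives. Mrps12 is the homolog of the bacterial protein at the decoding site where streptomycin resistance mutations arise. Mrps15 was at 0.28 and did not pass. The divergent neighbors Mrpl46 and Mrps11 were lowered to nearly the same degree. Mrpl46 had signals of 366.4, 341.8 and 418.9 on the Cy/+ arrays against 531.2, 546.1 and 466.1 on the +/+ arrays, and Mrps11 had 660.9, 662.6 and 696.4 on the Cy/+ arrays against 945.3, 1001 and 870.7 on the +/+ arrays. In both genes Cy/+ array 3 was the highest of its genotype, +/+ array 3 the lowest of its own, and the genotypes did not overlap. Each of these traits was common among the 73 members. Cy/+ array 3 was the highest for 46, +/+ array 3 the lowest for 64, and all Cy/+ arrays lay below all +/+ arrays for 56. This pair was singled out after its values were seen.

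Only 4 members were upregulated. Mrps6, the homolog of bacterial S6, had signals of 2303, 3298 and 4758 on the Cy/+ arrays and 1488, 1749 and 1810 on the +/+ arrays. The Cy/+ arrays spread more than 2-fold among themselves but all lay above the +/+ arrays (log2 fold change 0.98 ± 0.24, SE, limma adjusted p = 0.00972). Mrpl45, which holds the large subunit to the inner membrane at the tunnel exit, had signals of 562.5, 845.7 and 883.5 on the Cy/+ arrays and 428.4, 478.8 and 411.1 on the +/+ arrays. Cy/+ array 1 stood apart, nearer to the +/+ arrays than to the other Cy/+ arrays (log2 fold change 0.77 ± 0.18, SE, limma adjusted p = 0.0069). Mrpl23, whose bacterial homolog sits beside the tunnel exit, had signals of 1467, 1639 and 1555 on the Cy/+ arrays and 1160, 1250 and 1213 on the +/+ arrays. The rise was small and even (log2 fold change 0.36 ± 0.08, SE, limma adjusted p = 0.00521). Mrpl48, a mitochondria-specific protein of the central protuberance, had signals of 796.4, 847.2 and 1058 on the Cy/+ arrays and 708.6, 761.4 and 673.1 on the +/+ arrays. The genotypes were separated by a narrow margin (log2 fold change 0.33 ± 0.12, SE, limma adjusted p = 0.0488). The call held in only 6 of 17 alternatives. It was lost without any single array other than Cy/+ array 1 (limma adjusted p between 0.0593 and 0.142) and, with all arrays kept, under 6 further settings with adjusted p between 0.0531 and 0.104, centring on the median among them.

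The gene with the largest rise shares its locus with a transporter gene. In the GRCr8 annotation Slc5a3, the sodium-dependent myo-inositol transporter by which kidney cells take up an osmolyte, lies inside Mrps6. Slc5a3 had signals of 2423, 2946 and 4110 on the Cy/+ arrays and 944.6, 1231 and 1339 on the +/+ arrays. It was upregulated as well (log2 fold change 1.41 ± 0.21, SE, limma adjusted p = 0.000941), and the arrays of each genotype stood in the same order as for Mrps6. Slc5a3 was looked up because of this overlap, after its values were seen, and whether the probe sets of these genes see a shared transcript was not tested. In all, 18 of the 73 members overlap another gene in this annotation. Among 13 such neighbors with a tested probe set, the Cy/+ level was higher for 5 and lower for 4, and the other 4 did not pass. Over all genes tested, 37.4% were higher and 29.3% lower. Of the 8 neighbors of lowered members, 4 were lower and 2 higher. Tmem63b was higher (0.84) next to Mrpl14 at -0.47 and Guk1 was higher (0.30) next to Mrpl55 at -0.38. Lrrc46 was lower (-0.40) next to Mrpl10 at -0.39 and Stx3 was lower (-0.60) next to Mrpl16 at -0.52. Mrpl47 overlaps Actl6a, which was at -0.13 and did not pass, and Ndufb5, and Mrpl36 overlaps Ndufs6, both of them subunits of respiratory complex I. Ndufb5 was lower by a log2 fold change of -0.72 beside Mrpl47 at -0.55, and Ndufs6 by -0.37 beside Mrpl36 at -0.27. Mrpl43 overlaps Twnk, the mitochondrial DNA helicase, which was higher at 0.69 whereas Mrpl43 was at 0.19 and did not pass. The arrays do not show whether signal of overlapping genes was read separately.

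**Figure D2:**
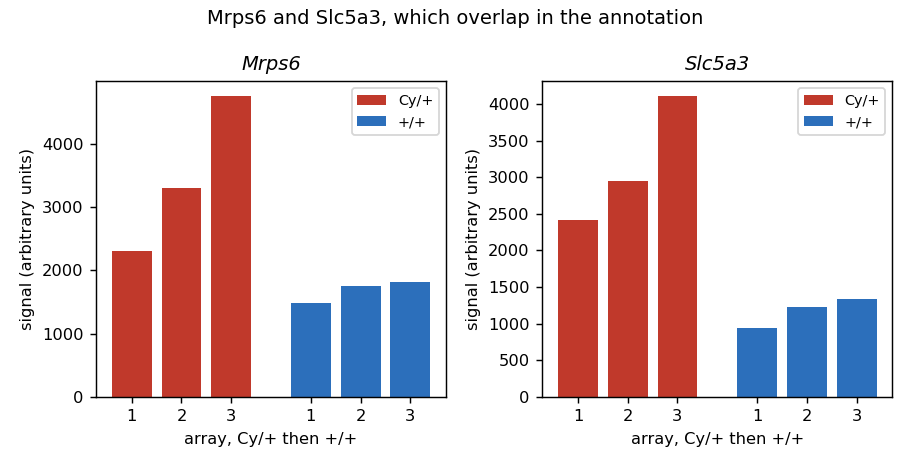
Signal of Mrps6 (left) and of Slc5a3 (right) on each of the 3 Cy/+ arrays (red) and the 3 +/+ arrays (blue), in arbitrary units on a linear axis from 0. Both genes were higher in all Cy/+ samples than in any +/+ sample, and Cy/+ array 3 was highest for both.

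The 4 members nearest to no change were Mrps5, Mrpl19, Mrpl52 and Mrps18a. Mrps5, homolog of the bacterial decoding protein S5, had signals of 580.9, 518.5 and 614.9 on the Cy/+ arrays and 597.0, 567.1 and 556.3 on the +/+ arrays, with a log2 fold change of -0.01 ± 0.09 (SE). Mrpl19 had signals of 442.3, 601.0 and 554.8 on the Cy/+ arrays and 584.4, 543.7 and 490.8 on the +/+ arrays, with a log2 fold change of -0.03 ± 0.13 (SE). In both genes the Cy/+ arrays spanned the range of the +/+ arrays. Mrpl52 had signals of 846.6, 933.6 and 903.2 on the Cy/+ arrays and 872.2, 884.7 and 863.8 on the +/+ arrays, with a log2 fold change of 0.03 ± 0.08 (SE). Mrps18a had signals of 941.0, 1020 and 1083 on the Cy/+ arrays and 1102, 1099 and 1026 on the +/+ arrays, with a log2 fold change of -0.09 ± 0.08 (SE). The arrays of these genes overlapped between the genotypes, and none of the 4 passed the test under any of the alternatives. The relatives of Mrps18a, Mrps18b (-0.59) and Mrps18c (-0.999), were both lower, and their difference from Mrps18a was not tested.

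**Figure D3:**
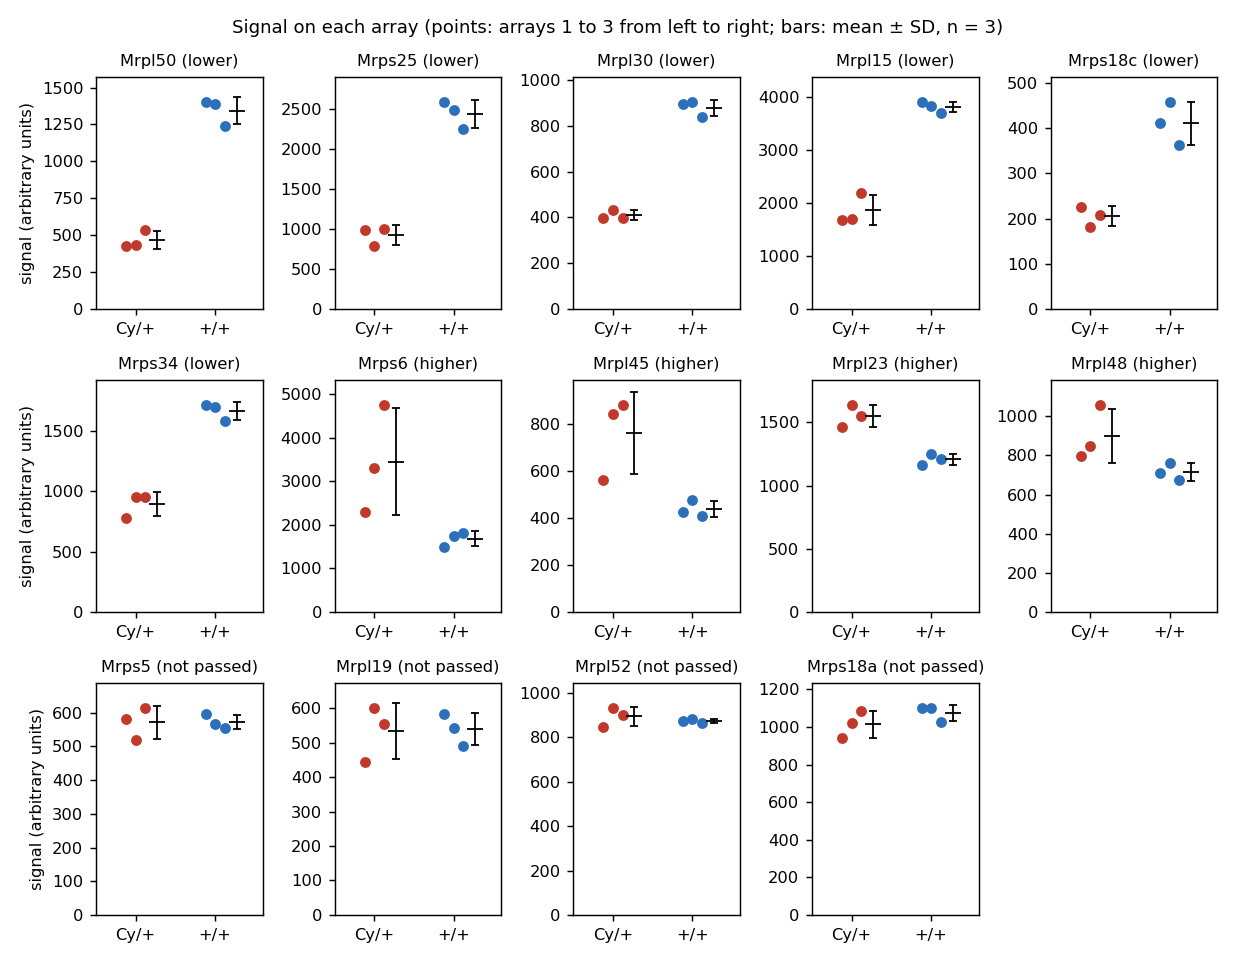
Signal on each array (points, arrays 1 to 3 from left to right) with mean and SD (n = 3) for the 6 members of largest decrease, the 4 that were higher and the 4 nearest to no change, in Cy/+ (red, left) and +/+ kidneys (blue, right), on linear axes from 0. The genotypes are separated in the first 10 panels and overlap in the last 4.

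For 15 members more than 1 probe set could be tested, and these did not always give the same value. Of the 19 further probe sets, 15 were lower in Cy/+ kidneys, none was higher and 4 did not pass. Their median log2 fold change was -0.67, against -0.39 for the brightest probe sets of the same 15 genes. A total of 11 of the 19 were more strongly lowered than the brightest probe set of their gene. The widest gap was that of Mrpl37, at -0.20 for its brightest probe set and -1.83 for the other. Mrpl50 went the opposite way, since its second probe set had a log2 fold change of -0.03 (limma adjusted p = 0.844) in contrast to -1.53, so that the largest decrease among the members rests on 1 of its probe sets. Mrpl10 had -0.39 and -1.30, Mrpl49 had -0.20 and -0.91, and Mrpl51 had -0.16 with 0.09, -0.60 and -1.02 for its other 3 probe sets. For Mrpl12 the values were -0.12 and -0.55, for Mrps24 -0.25 and 0.14 and for Mrps27 -0.14 with -0.64 and -0.85. The probe sets were close for Mrps18c (-0.999 and -0.97), Mrpl40 (-0.75 and -0.67), Mrps9 (-0.81 and -0.68) and Mrpl52 (0.03 and 0.01). In 5 genes whose brightest probe set did not pass, another was lower, which brings the members with any lowered probe set to 56. The part of the higher 3′ to 5′ ratios of the Cy/+ samples in these differences was not tested.

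**Figure D4:**
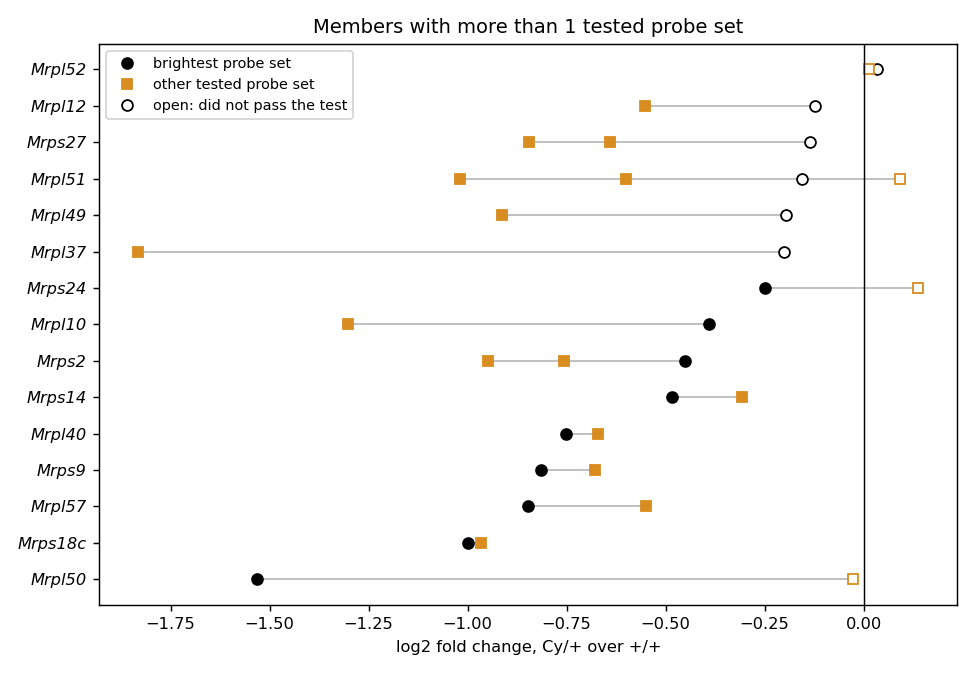
Log2 fold change, Cy/+ over +/+ kidneys, of every tested probe set of the 15 members with more than 1, with the brightest as black circles, the others as orange squares and open symbols for those that did not pass the test. Mrpl37 and Mrpl50 have the widest gaps, with the brightest probe set nearer to 0 in Mrpl37 and farther from 0 in Mrpl50.

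Across the arrays the decrease was present in each Cy/+ sample. The median member was 0.49, 0.46 and 0.35 log2 units below the +/+ mean on Cy/+ arrays 1, 2 and 3. Cy/+ array 3 had the highest signal of its genotype for 46 of the 73 members and the lowest for 1, and among the +/+ arrays array 3 was the lowest for 64. Proximal tubule markers had medians of -2.28, -4.01 and -2.68 on Cy/+ arrays 1, 2 and 3 relative to the +/+ mean and were lowest on array 2. The small subunit genes (-0.46, -0.57 and -0.43) were deepest on Cy/+ array 2. So were the 51 lowered members (-0.57, -0.63 and -0.47), which were picked by their low values on these same arrays. The large subunit genes were deepest on array 1 (-0.49, -0.39 and -0.28). Of all 73 members, 40 were lowest on Cy/+ array 1 and 32 on array 2. Respiratory chain and ATP synthase genes were lowest on Cy/+ array 2 for 52 of 76. The spread between samples was wider in Cy/+ kidneys, where the members had a median SD of 0.12 on the log2 scale in contrast to 0.08 in +/+ kidneys, and the SD was the larger one in Cy/+ for 58 of 73. Over all genes tested the corresponding medians were 0.16 in Cy/+ and 0.08 in +/+ kidneys. The SD was larger in Cy/+ for 8327 of these 10645 genes, a share near that of the members. The 18 probe sets of hybridization controls and the 24 of poly-A controls, which carry no rat RNA, had higher signals on all Cy/+ arrays than on any +/+ array, by 1.83-fold and 3.82-fold at the median. The part of this shift in any result was not tested. Markers of macrophages (4 of 4 tested), lymphocytes (2 of 2), fibroblasts (4 of 5) and injured tubules (5 of 5) were higher in Cy/+ kidneys, and those of podocytes (2 of 2) and endothelial cells (3 of 4) lower, whereas none of 2 thick ascending limb, 1 distal convoluted tubule and 4 collecting duct markers passed the test. Summed over the list, injured tubule markers reached 43640 to 54840 on the Cy/+ arrays and 5246 to 7194 on the +/+ arrays, and fibroblast markers 12356 to 25883 on the Cy/+ arrays and 4779 to 5625 on the +/+ arrays. Macrophage markers summed to 10556 to 14229 in Cy/+ and 5375 to 6314 in +/+ samples, and endothelial markers to 1975 to 2862 in Cy/+ and 5037 to 5366 in +/+ samples. Their part in the members' values was not tested.

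Other genes of mitochondrial protein synthesis were lower in varying shares. Ribosomal proteins whose symbol is not Mrpl or Mrps were mixed, with Ptcd3 (-0.39) and Chchd1 (-0.22) lower, Dap3, a GTP-binding protein of the small subunit head, higher (0.35), and Aurkaip1 (-0.16) and Gadd45gip1 (0.19) not passing. Of 12 translation factors, 8 were lower and none higher, with a median of -0.57. The smallest adjusted p-values belonged to Tsfm (-0.90), the exchange factor for the elongation factor Tu, Mrrf (-0.96), which recycles the ribosome, and Gfm1 (-1.67), which moves it along the message. Of 24 factors that assemble the mitochondrial ribosome or modify its RNA, 15 were lower and 2 higher (median -0.39), among them Tfb1m (-0.71), an rRNA methyltransferase, Mterf3 (-0.77) and Rpusd3 (-0.70), a pseudouridine synthase relative. Ngrn (0.44) and Trub2 (0.47) were the 2 higher, and the other 7 did not pass. Of 18 genes for charging mitochondrial tRNAs, 9 were lower and 4 higher (median -0.20), led by Gatc (-0.88), Gatb (-1.20), both subunits of the amidotransferase that makes glutaminyl-tRNA, and Wars2 (-0.76) among those lower, and by Nars2 (1.51), Kars1 (0.45) and Aars2 (0.44) among those higher. Kars1 also encodes the cytosolic enzyme.

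Genes for transcription and copying of mitochondrial DNA, which supply the ribosomal RNA and the messages, were lower in 7 of 12 cases and higher in 1 (median -0.30). Tefm (-1.20), the transcription elongation factor, Polg2 (-1.55), the accessory subunit of the DNA polymerase, and Tfb2m (-0.97), the initiation factor, were lower, and Twnk (0.69) was higher. Tfam, which packages the DNA, was at -0.04 and did not pass. Of 9 nuclear regulators of mitochondrial genes, 3 were higher and 2 lower. Myc (2.50), Nrf1 (0.88) and Pprc1 (1.28), a coactivator related to PGC-1alpha, were higher, and Esrra (-0.64) and Gabpa (-0.56) were lower. Yy1 was at 0.10 and did not pass. The factors behind 3 motifs found in members' promoters were thus higher (Nrf1), lower (Gabpa) and not called (Yy1) at the RNA level.

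The nuclear subunits of the respiratory chain and ATP synthase, whose mitochondrial partners this ribosome makes, were lower in 69 of 76 genes (90.8%) and higher in 2, with a median log2 fold change of -0.71, compared with -0.39 for the members. Ndufb6 (-1.55), Ndufb8 (-1.49) and Ndufb11 (-1.22), subunits of complex I, had the smallest adjusted p-values, and Cox6a2 (0.95) and Cox7a2l (0.55) were higher. Import proteins of the Tomm and Timm families were lower in 14 of 22 genes and higher in none (median -0.54), with Timm10b (-1.08), Timm17b (-0.89) and Timm17a (-0.97) at the smallest adjusted p-values. The ribosomal proteins of the cytosol took the opposite direction, with 39 of 42 genes higher, none lower and a median of 0.54. Rpl13a (1.14), Rpl27a (0.68) and Rpl3 (0.77) had the smallest adjusted p-values there. No test was made of these lists against the members.

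**Figure D5:**
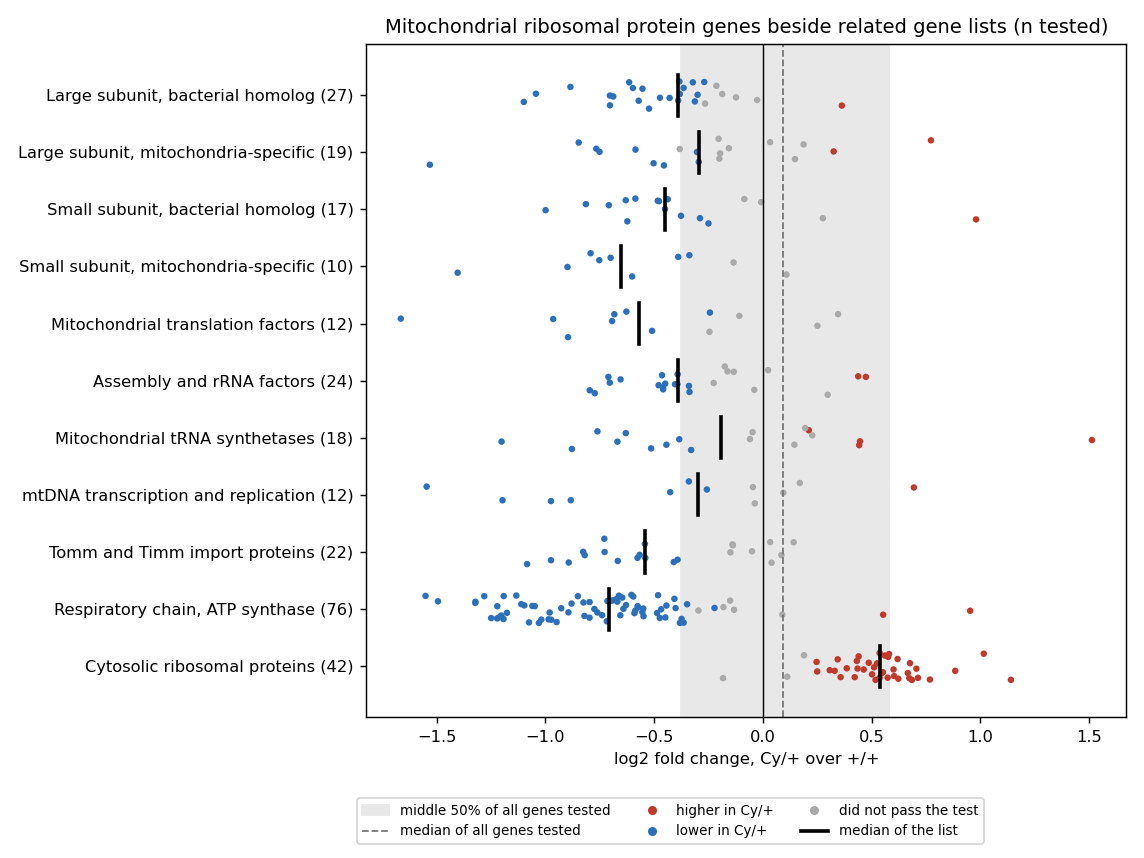
Log2 fold change, Cy/+ over +/+ kidneys, of every tested gene (points) in the 4 groups of members and in 7 related lists, with list medians as black bars and the quartiles and median of all genes tested as a grey band and a dashed line. The medians of the 4 member groups lie between -0.65 and -0.29, that of the respiratory chain and ATP synthase at -0.71 and that of the cytosolic ribosomal proteins at 0.54.

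A promoter sequence was found for 59 of the 73 members. The YY1 motif AAGATGGC was present in 23.7% of them, in contrast to 5.71% of the 8867 promoters of tested genes and 3.17% of all 33469 promoters of the table, each 300 bases long. In 11 of the 59 it lay within 60 bases, the 10 before the first base and the 50 that begin with it. There 3.54% of the promoters of tested genes had it. The printed sequences of Mrpl50, Mrps6, Mrps18b and Mrpl46 were all among these 11. The GABPA motif CCGGAAG was present in 33.9% of members, 18% of promoters of tested genes and 8.75% of all promoters, and the NRF1 motif GCATGCGC in 8.47% of members, 4.87% of promoters of tested genes and 2.47% of all promoters. Of the members that were lower, 22 of 40 (55%) had any of the 3 motifs, as did 3 of the 4 that were higher and 7 of the 15 (46.7%) that did not pass. The share among promoters of tested genes was 25.8%. Motifs were thus found among members of either direction, as in Mrpl50 and Mrps6, and a match describes the letters only.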

How the data were processed

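Kidney RNA was measured in 3 Cy/+ and 3 +/+ samples with 1 array each. The authors labeled cRNA from total RNA, scanned the arrays and processed the images with Affymetrix software (MAS5 in the submitters' notes). Values were deposited as signal intensity on a linear scale, 1 per probe set, from 10.65 to 32240, with array medians of 120.1 to 128.1. Detection calls were not used here, and the number of arrays limits the precision.

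Signals were taken to log2 with no pseudocount or further scaling. Of 31099 probe sets, 57 controls were left out, and the 18625 with a mean log2 signal at or above the 40th percentile (6.28, a signal of 77.8) were tested. Symbols came from the platform annotation, with 20832 probe sets holding 1 symbol, 436 several and 9831 none, which are unnamed here. The genotype effect was fitted with limma (version 3.58.1, R 4.3.3; eBayes with an intensity trend, no covariate), and p-values over all 18625 probe sets were Benjamini-Hochberg adjusted. The fit was tested on simulated arrays. Members, gene lists and motifs were chosen with earlier results of these data known, so lists are described by counts and medians only. Each array is printed for the 6 members of largest change each way among those called without overlap and for the 4 nearest to no change. Other members are given by log2 fold change, and other lists by their 3 genes of smallest adjusted p each way. Promoter sequences are from RefSeq (GRCr8), which also gave names and neighbors.

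Same-numbered arrays did not deviate together, so the replicate numbers were not used. Alternatives changed the normalization, pseudocount, filter, intensity trend, array weights, test, replicate block, probe set rule, naming, subunit assignment and each array in turn.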

Additional observations from a re-analysis of the deposited data

How the results depend on the processing

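Each called member kept its direction under every alternative that gave it a value, which were 17, or 16 for Mrpl17. Of the 51 members that were lower, 38 stayed past the threshold in all of them and 13 lost the call in at least 1, and of the 4 that were higher, Mrpl45 and Mrpl23 always stayed. Over all alternatives 39 to 57 members were lower, 21 to 36 in the large and 17 to 21 in the small subunit, with a median log2 fold change between -0.46 and -0.39. The higher calls moved more. Array weights gave 7 members higher, 5 in the large and 2 in the small subunit, and the methods' t-test gave 2, with 0 in the small subunit, where Mrps6 had an adjusted p of 0.0567. Leaving out 1 array at a time gave 3 to 8 members higher, 2 to 5 in the large and 1 to 3 in the small subunit, the most without Cy/+ array 1, and a median between -0.46 and -0.39, the lowest without Cy/+ array 3. Lower calls ranged from 39 without +/+ array 2 to 51. Of lower and higher calls together, 13 were lost without +/+ array 2 and 12 without +/+ array 1, with the higher call of Mrpl48 among them each time. With the replicate block 43 members were lower and 3 higher. Same-numbered arrays had correlations of deviations of 0.147, -0.110 and -0.151, so the numbers were not taken to pair the samples. Centring on the median moved the Cy/+ arrays by 0.07 log2 units relative to the +/+ arrays and gave 57 members lower and 3 higher. Averaging all probe sets of each gene gave 55 lower and 4 higher. The cause of these shifts was not tested. With 3 arrays a genotype, Mrpl36, Mrps24 and Mrpl48 lay close to the threshold and kept their calls in 5, 6 and 6 of 17 alternatives.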
